A study of Caenorhabditis elegans with 40 samples.

Results

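The genes described here are 64 Caenorhabditis elegans genes that carried no gene name in the deposited table, only the name of the sequence they were predicted from, and whose level in males was high at the last larval stage (L4). They were selected on 3 conditions on normalized counts, each a mean over 4 libraries: at least 30 in L4 males, at least 4 times the L4 hermaphrodite mean plus 1, and above the young adult (YA) male mean. Of 11933 genes in the table, 5922 had a sequence name only, and 2 of those were set aside by the rule. Because the L4 male, L4 hermaphrodite and YA male levels chose the members, those levels are given below as a description with no test. The tests compared the other 7 groups of libraries, 28 in all: both sexes at L1, L2 and L3, and YA hermaphrodites.

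RNA was taken from whole worms of 5 stages and both sexes, with 4 repeats in each of 10 groups. Males were dpy-28(y1);him-8(e1489) animals, in which a temperature-sensitive defect of dosage compensation kills most XX animals at this temperature and the him-8 mutation raises the share of XO males, and hermaphrodites were the wild-type strain N2, all grown at 25 °C. Sex and strain therefore cannot be told apart in any comparison of males with hermaphrodites. The male populations were enriched by leaving behind the embryos and larvae that did not crawl to food at L1, and each library is a pool of many worms. In whole worms fewer cells of a type and less RNA per cell cannot be told apart.

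A C. elegans male differs from a hermaphrodite mainly in structures that are built in the later larval stages: the rays and spicules of the tail used in mating, the neurons and muscles that serve them, and a gonad with a vas deferens that goes on making sperm in the adult. Hermaphrodites make sperm only for a time around L4 and then switch to oocytes. Each larval stage also ends in a molt, in which collagens, cuticlins and hedgehog-related proteins of the new cuticle are made in a burst and then fade. Genes of male structures, of sperm and of the molt can all be high in L4 males, and the levels in the other groups show where the members differ from each other.

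Library totals ran from 1724365 to 14129759 unique molecular identifiers (UMIs, 1 per captured RNA molecule), with a median of 5616412. L1 males were the shallowest group at 1724365 to 3812947. YA hermaphrodite libraries 1 and 4 stood apart from libraries 2 and 3: the summed level of 3 genes of seminal fluid and the vas deferens, clec-207 and K09C8.2 among them, was 179 and 133 in the former and 1.51 and 0 in the latter. MSP (major sperm protein) genes summed to 18975 and 16561 in libraries 1 and 4 and to 3180 and 4939 in libraries 2 and 3, yolk, oocyte and eggshell genes to 77333 and 86559 against 173807 and 199210, and germline genes of both sexes to 4665 and 6389 against 19639 and 21233. The part of these differences in the results on YA hermaphrodites was not tested, and those results are given with and without libraries 1 and 4.

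The 64 members were far from equal. The mean level in L4 males ran from 30.5 to 13813, with a median of 74.9. Y39B6A.9 alone supplied 44.5% of the summed L4 male level of all members, and the 3 highest members together 70.4%. Y39B6A.9 and R01E6.5 are the pair among them that the study itself names as male markers, of the spicule muscle and of a spicule neuron. In the current annotation 9 of the 64 have since received a name, among them wdr-31 (T05A8.5), a WD-repeat protein of cilia, and 2 are pseudogenes, F07H5.4 and Y17D7C.4. The rest have no role in the files or the annotation and none is given here.

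Among the 62 protein-coding members the median length was 233 residues, beside 326 for unnamed genes tested and 387 for all genes tested, and 22 of the 62 (35.5%) had fewer than 150 residues, beside 16.3% of unnamed genes tested. The longest, H11E01.3, had 1517. The members were spread over the genome, with 17 of the 64 on chromosome IV (26.6%, beside 17.3% of all genes tested) and 9 on X (14.1%, beside 13.5%). T05A8.5 and T05A8.8, 1386 bases apart on chromosome II, were the nearest members to each other. Another protein-coding gene or pseudogene overlapped 14 members on the opposite strand and 3 on the same strand. No source used here says whether reads were counted by strand, so for those genes reads of the member and of its partner cannot be told apart. Among the members described below they are Y39A1A.9, T28D6.5, ZK287.1, T05H10.3, Y17G7B.23, K02B12.6, F33A8.7, Y52B11A.4, Y43F8C.3, BE10.4, Y37E11AL.6, Y55D5A.1, W10C4.1 and F41C6.6.

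Despite the rule, 43 of the 64 had their highest mean of all 10 groups in L4 males and 21 had it elsewhere. L1 males were highest for 8, L1 hermaphrodites for 8, L3 males for 4 and L2 males for 1. Sorted by their larval levels, the members fell into 3 kinds. Means stayed under 3 in every L1, L2 and L3 group for 13 members (near 0 before L4). Another 8 were under 10 at L1 and L2 in both sexes (low at L1 and L2). The remaining 43 had a level of 10 or more in at least 1 group at L1 or L2. These limits were set after the levels were seen, and counts within a kind are a description.

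**Figure D1:**
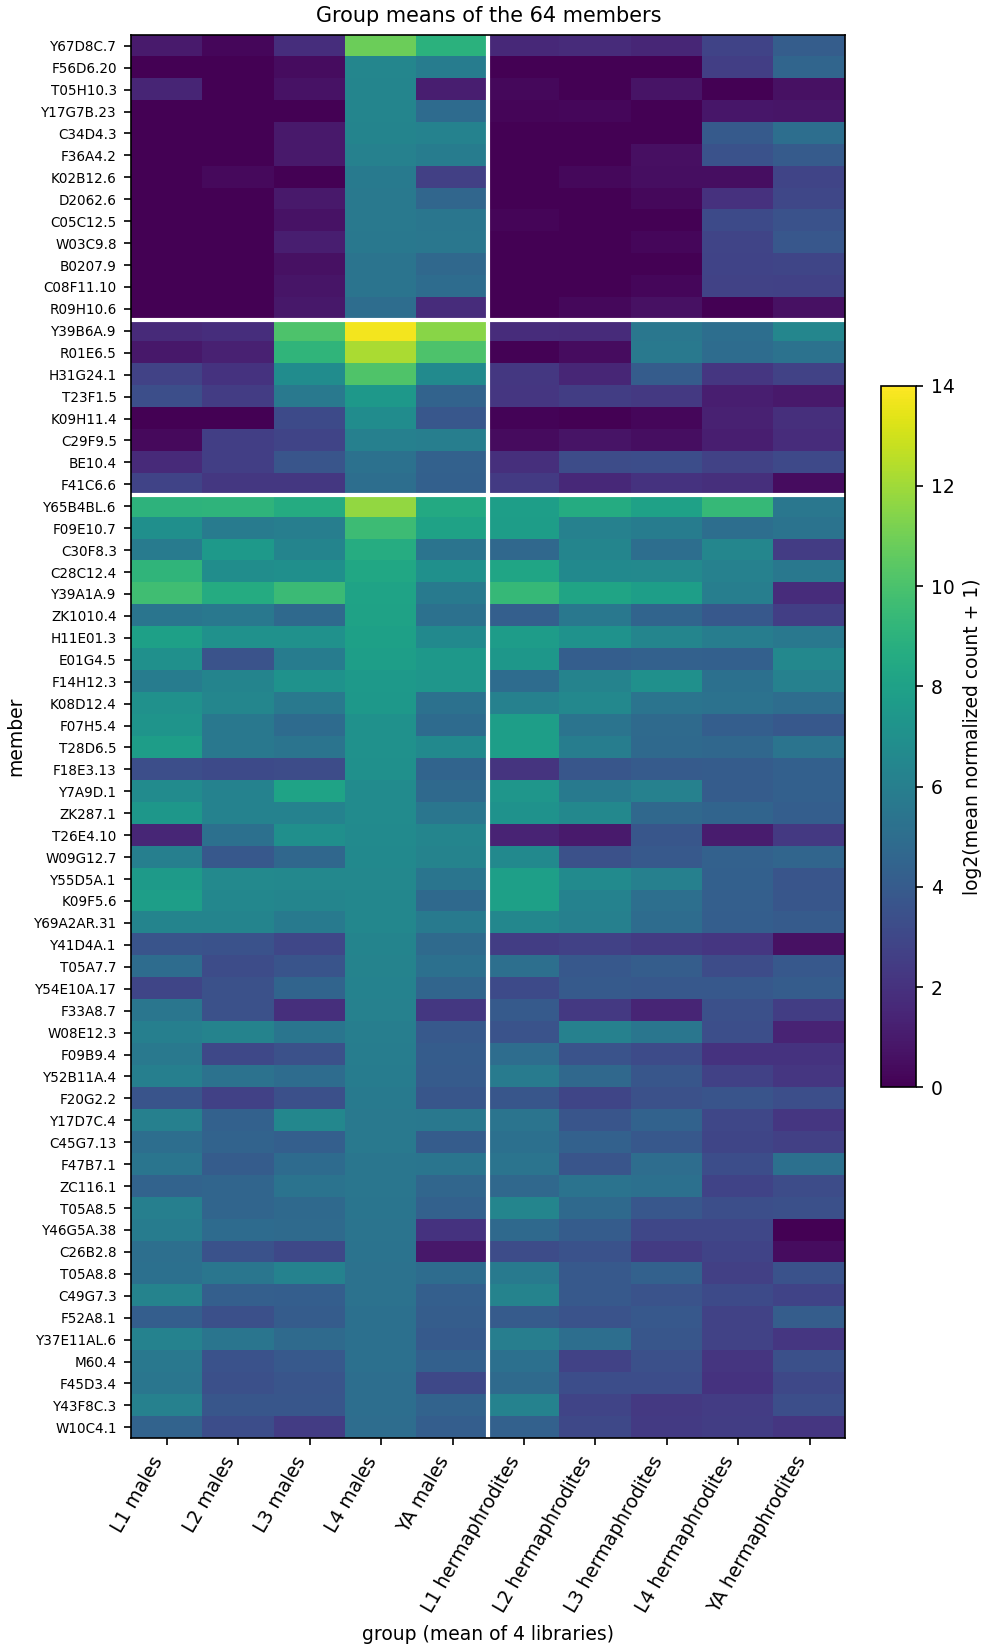
Mean normalized count of the 64 members in the 10 groups, as log2(mean + 1), with members in rows and groups in columns; white lines part the sexes (upright) and the 13 members near 0 before L4 (top), the 8 that were low at L1 and L2 (middle) and the 43 with a level at L1 or L2 (bottom). Every L4 male mean is 30 or more, as the rule requires, and in the top block the L1, L2 and L3 columns are dark in both sexes.

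The 8 members that were low at L1 and L2 include the most abundant ones. All 8 had their highest mean in L4 males, and L3 males stood at 6.95% to 31.9% of that mean, with a median of 10.8%. By the YA stage males had kept a median of 22.2% of the L4 level.

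Y39B6A.9 (chromosome V, 19136506 to 19139094 in WBcel235, 3 exons, 229 residues) was the highest member. Its normalized count was at most 3.74 in every L1 and L2 library of either sex. In L3 males it was 1214, 965, 1108 and 993, and in L3 hermaphrodites 41.4, 56.9, 48.0 and 35.5. The L3 libraries of the sexes were far apart, and those of each sex lay close together. L4 males reached 13826, 10830, 14543 and 16054, against 43.1, 14.5, 26.1 and 45.1 in L4 hermaphrodites, and YA males held 2517, 2232, 2583 and 4509. The sex difference at L3 was a log2 fold change of 4.56 ± 0.30 (SE, n = 4 libraries per group, edgeR adjusted p = 7.33e-14), and males rose by a log2 fold change of 8.73 ± 0.40 from L2 to L3 (adjusted p = 1.22e-19). Hermaphrodites rose over the same interval too, by 4.33 ± 0.40 on the log2 scale (adjusted p = 8.72e-11).

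R01E6.5 (chromosome X, 13537059 to 13538109, 3 exons, 244 residues) followed the same course. Its values were 601, 545, 576 and 602 in L3 males and 51.3, 49.97, 47.1 and 46.2 in L3 hermaphrodites. All L1 and L2 libraries were at 3.42 or below. L4 males had 4676, 4671, 4581 and 4977, close together beside the spread of YA males, which held 1022, 899, 929 and 1506. The sex difference at L3 was 3.59 ± 0.33 on the log2 scale (edgeR adjusted p = 1.57e-10), and the rise in males from L2 to L3 was 8.67 ± 0.48 (adjusted p = 1.37e-17). In hermaphrodites 2 UMIs at L2 became 216 at L3, a ratio of 119 with a 95% counting interval of 32.5 to 987. In YA hermaphrodites R01E6.5 was 68.2 and 60.5 in libraries 1 and 4 and 10.5 and 14.2 in libraries 2 and 3, and the part of the library differences given above in this split was not tested.

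H31G24.1 (chromosome I, 4123481 to 4124764, 2 exons, 108 residues) was 95.3, 100.4, 119 and 136 in L3 males and 19.8, 16.9, 14.6 and 13.02 in L3 hermaphrodites. In L4 males it reached 1193, 1065, 1080 and 1115, while L4 hermaphrodites were back at 0.77 to 7.24. It was higher in L3 males by 2.81 ± 0.36 on the log2 scale (adjusted p = 2.39e-07), and it rose from L2 to L3 in males by 5.24 ± 0.46 (adjusted p = 4.99e-12) and in hermaphrodites by 3.11 ± 0.53 (adjusted p = 3.90e-05). T23F1.5, now rocf-1 (chromosome V, 15459411 to 15464502, 11 exons, 1261 residues), was 51.9, 41.9, 46.9 and 56.4 in L3 males and 2.37 to 4.61 in L3 hermaphrodites, a log2 difference of 3.59 ± 0.44 (adjusted p = 8.56e-08). Males rose from L2 to L3 by 3.46 ± 0.44 (adjusted p = 4.81e-08), and the hermaphrodite means of 4.79 and 3.94 were not called.

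K09H11.4 and C29F9.5 were the rarest members called at L3. Both averaged under 5 normalized counts over the 28 libraries that the rule did not use. A call needs a mean of 5 over all libraries, and they met it only with the groups that chose them. K09H11.4 had no UMI in any L1 or L2 male library, then 33 over the 4 L3 male libraries and 1 over the 4 L3 hermaphrodite libraries, a ratio of 33.0 with a 95% counting interval of 5.53 to 1340. From L2 to L3 it was at least 10.8-fold higher in males, taking 3 UMIs over the 4 L2 libraries as the limit that a count of 0 allows. C29F9.5 had 30 UMIs in L3 males and 2 in L3 hermaphrodites, a 15-fold ratio with an interval of 3.81 to 130. The intervals are wide because so few molecules were counted, and they cover counting error only. BE10.4 and F41C6.6, the other two of this kind, had L3 male means of 11.7 and 3.79 beside hermaphrodite means of 8.73 and 3.11 and were not called.

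**Figure D2:**
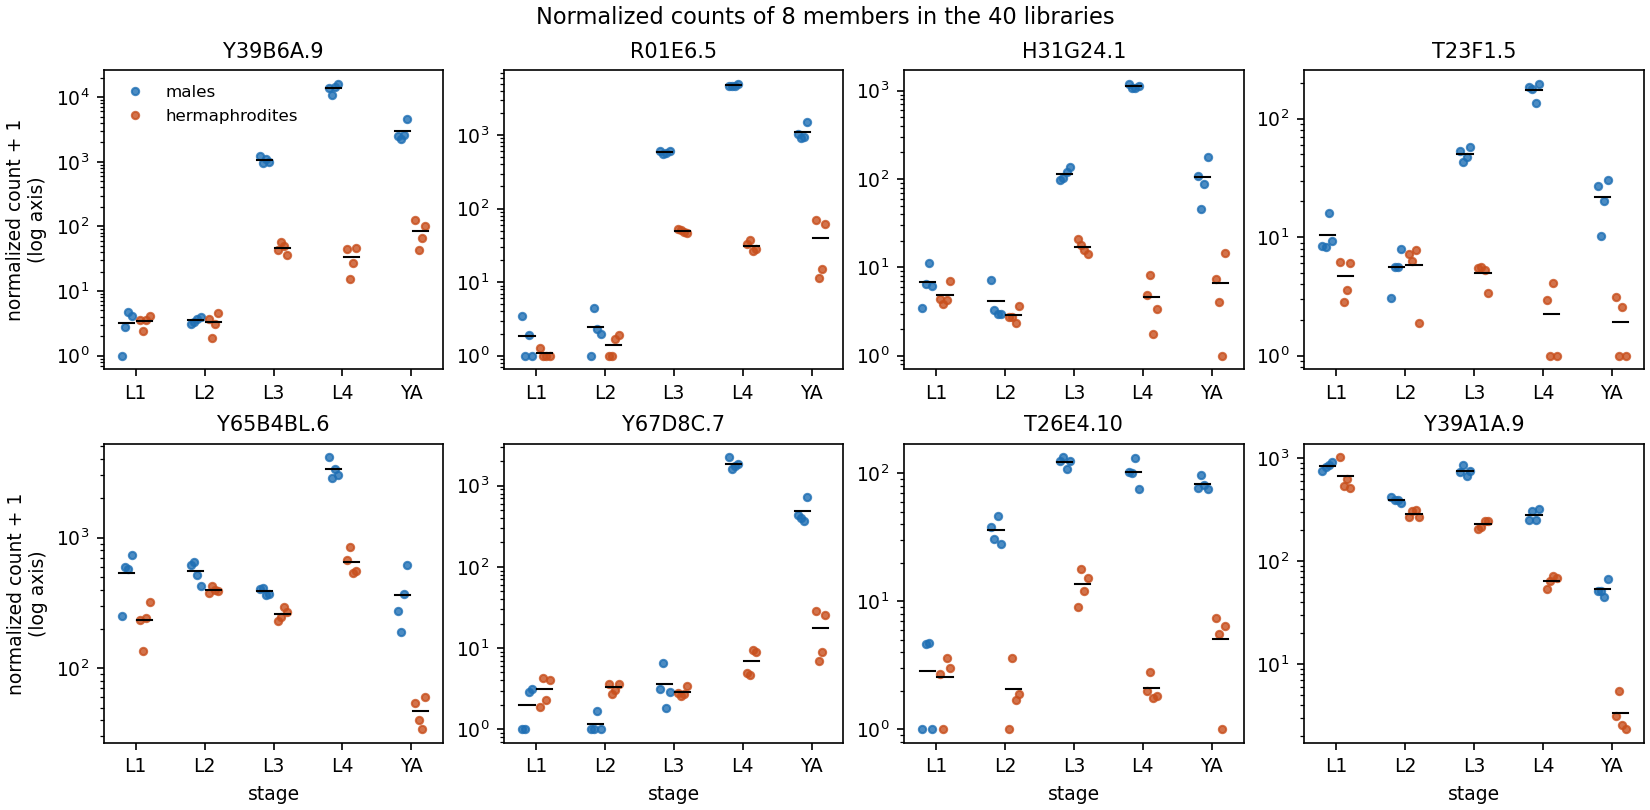
Normalized count plus 1 (log axis) of 8 members in each of the 40 libraries by stage, males in blue and hermaphrodites in orange; each point is a library and each bar the mean of 4. With males higher, the libraries of Y39B6A.9, R01E6.5 and H31G24.1 separate the sexes from L3 on and those of T26E4.10 from L2 on. T23F1.5 separates them at L1 and from L3 on, and Y67D8C.7 at L4 and YA. Y65B4BL.6 and Y39A1A.9 are detected at every stage.

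The largest group was the 43 members with a level at L1 or L2. In 34 of the 43 the L1 male mean exceeded the L2 male mean, and in 17 it exceeded the L4 male mean itself. In hermaphrodites 32 of 43 had a higher mean at L1 than at L2. Lower means at L4 than at L3, in 33 of 43, are favoured by the rule, which asks for a low L4 hermaphrodite level. For 16 of the 43 an L1 group was the highest of all 10. These counts are a description, and the shares over all genes are not given.

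Between L1 and L2 males, 18 of the 64 members fell and 3 rose (28.1% and 4.69%, beside 8.13% and 10.9% of the 8110 genes tested). E01G4.5 (chromosome II, 13472401 to 13473995, 384 residues) went from 118, 125, 128 and 139 in L1 males to 10.3, 12.5, 6.63 and 14 in L2 males, and the groups did not overlap. The log2 fold change was -3.41 ± 0.29 (edgeR adjusted p = 2.12e-11). E01G4.5 then rose again, to 59.0, 57.2, 65.9 and 49.95 in L3 males and 229, 226, 197 and 269 in L4 males. Its L3 rise was 2.50 ± 0.29 (adjusted p = 9.33e-09).

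Others that fell from L1 to L2 males were C28C12.4, now srlf-3 (mean 579 to 116, log2 fold change -2.15 ± 0.25, adjusted p = 3.06e-08), Y43F8C.3 (70.2 to 12.2, -2.32 ± 0.28, adjusted p = 3.46e-08), T28D6.5 (221 to 47.8, -2.02 ± 0.25, adjusted p = 9.20e-08), W09G12.7 (64.5 to 13.3, -2.10 ± 0.29, adjusted p = 5.80e-07) and K09F5.6 (234 to 88.6, -1.23 ± 0.22, adjusted p = 3.84e-05). In C28C12.4 the L1 males read 748, 514, 571 and 483 and the L4 males 351, 296, 280 and 384, so that every L4 library lay below every L1 library. The 3 that rose were T26E4.10, C30F8.3 and C29F9.5. C29F9.5 had 1 UMI at L1 and 21 at L2. T05H10.3 is counted among those that fell, on 6 UMIs at L1 and none at L2, a fold of at least 2.91. C29F9.5 and T05H10.3 averaged under 5, the limit for a call, over the 28 libraries that the rule did not use.

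**Figure D3:**
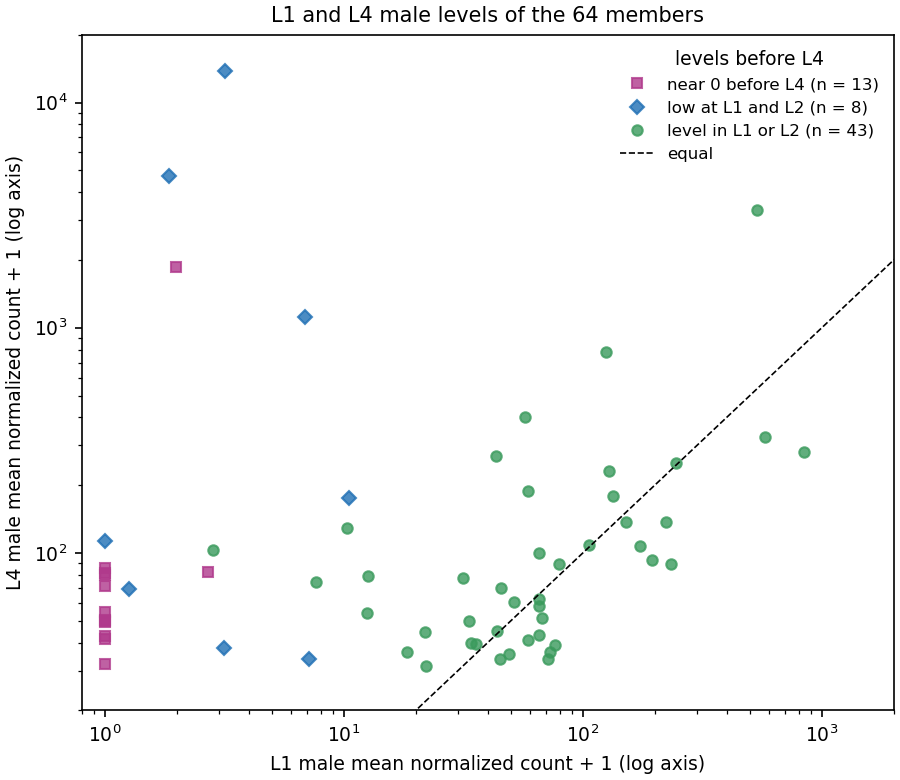
Mean normalized count plus 1 of the 64 members in L1 males (x axis, log) and in L4 males (y axis, log), 1 point per member, by kind; the dashed line marks equal levels. The 13 members near 0 before L4 lie at the left edge, and 17 of the 43 with a level at L1 or L2 lie below the line.

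At L1, 5 of the 64 members were higher in males than in hermaphrodites (7.81%, beside 3.30% of genes tested) and none was lower (beside 2.91%). By the same edgeR test 15 members were higher and 6 lower at an unadjusted p under 0.05, and the DESeq2 Wald test called 9 higher and none lower. For these further counts the shares over all genes are not given, so they cannot be set against a background. W08E12.3, now idpp-12, had the largest difference: 2.45, 107, 103 and 47.0 in L1 males against 6.87, 1.86, 18.1 and 16.7 in L1 hermaphrodites, a log2 fold change of 2.56 ± 0.51 (adjusted p = 6.48e-04). Male library 1 lay inside the hermaphrodite range, and without it the difference was 2.91. With only the L1 groups in the fit the calls of W08E12.3 and Y65B4BL.6 were lost, at adjusted p-values of 0.0878 and 0.0642, and so were those of C30F8.3 and C26B2.8 (0.168 and 0.221). Y65B4BL.6 (chromosome I, 520109 to 521554, 52 residues) was 250, 590, 574 and 729 in L1 males and 234, 134, 243 and 321 in L1 hermaphrodites, a log2 fold change of 1.11 ± 0.28 (adjusted p = 0.00678).

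The remaining L1 calls, C30F8.3, F33A8.7 and C26B2.8, had adjusted p-values of 0.0447, 0.0374 and 0.0370. Each was lost without any of several single libraries: C30F8.3 without L1 male 2, 3 or 4 or hermaphrodite 2 or 3, F33A8.7 without male 2, 3 or 4 or hermaphrodite 1, 2 or 3, and C26B2.8 without male 2, 3 or 4 or hermaphrodite 1 or 2. The call of Y65B4BL.6 was lost without L1 male 4 or hermaphrodite 2, at log2 fold changes of 0.92 and 0.90. The count of calls was 8 without male 1 or hermaphrodite 1, 2 without male 2, 3 or 4 or hermaphrodite 2, and 5 and 7 without hermaphrodites 3 and 4. The labels do not say that repeat numbers pair the samples, and the calls above come from the fit without a replicate block. With repeat numbers taken as pairs in such a block, C30F8.3 had an adjusted p of 0.107 and C26B2.8 of 0.0731, and neither was called. The L1 groups also differed in the summed level of the 14 molting genes in the table, at 10643 to 14329 in males and 4797 to 7174 in hermaphrodites, and of the 41 hedgehog-related genes, at 9814 to 16978 and 3966 to 8035. The part of this difference in the L1 calls was not tested.

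At L2 the sexes differed in 2 members, both higher in males (3.12%, beside 0.481% of genes tested), and no member was lower (beside 0.210%). At an unadjusted p under 0.05 edgeR had 11 members higher and 3 lower, and DESeq2 called 3 higher and none lower, again without shares over all genes. T26E4.10 (chromosome V, 15797879 to 15798208, 89 residues) was 37.2, 29.7, 45.8 and 27.0 in L2 males and 0, 2.62, 0.69 and 0.88 in L2 hermaphrodites, a log2 fold change of 4.96 ± 0.53 (adjusted p = 1.85e-08). At L1 its values were 3.74 or less in both sexes, so that the males rose by 4.22 ± 0.53 from L1 to L2 (adjusted p = 9.76e-08) and again by 1.86 ± 0.34 to L3 (adjusted p = 5.93e-05). Hermaphrodites rose as well from L2 to L3 (3.53 ± 0.57, adjusted p = 1.47e-05), to 8.11, 16.9, 11.1 and 14.2, and held 0.77 to 1.81 at L4. Its L4 male values of 102, 99.5, 130 and 75.0 overlapped those of L3 males, 124, 133, 108 and 125, which had the higher mean.

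T05A8.8 (chromosome II, 2736678 to 2737715, 148 residues) was the other L2 member, at 49.6, 44.5, 42.4 and 37 in males and 13.02 to 15.03 in hermaphrodites, a log2 fold change of 1.61 ± 0.33 (adjusted p = 0.00401). At L3 the difference was 1.91 ± 0.32 (adjusted p = 2.43e-05). Its neighbour T05A8.5 (wdr-31; 2731105 to 2735292) had means of 22.4 and 26.1 in L2 males and hermaphrodites and was called at L3 only, at 1.01 ± 0.34 (adjusted p = 0.0451). The L2 call of T05A8.8 held without any single library. The L2 count was 4 without L2 hermaphrodite 1, 3 without L2 male 2 and 2 otherwise.

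At L3, 20 of the 64 members were higher in males (31.2%, beside 7.63% of genes tested) and none was lower (beside 0.925%). At an unadjusted p under 0.05 edgeR had 27 members higher and none lower, and DESeq2 called 19 higher and none lower. Shares over all genes are not given for either count. In 25 members every male library lay above every hermaphrodite library, beside 16.3% of all genes tested. All 64 members passed the filter on low counts when all 40 libraries were used for it. When the filter and the fit used the 28 independent libraries alone, 48 members passed it and 16 of those were called. That fit tested 7384 genes, and the share of them called is not given. Of the 20, 6 were of the kind low at L1 and L2, 14 had a level at L1 or L2, and none was among the 13 near 0 before L4. The kinds were defined by larval levels in these same libraries, so this split follows in part from the definition.

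Besides the members already described, Y7A9D.1 (chromosome IV, 16381378 to 16382215, 114 residues) was 279, 310, 251 and 255 in L3 males and 64.8, 78.4, 69.4 and 62.7 in L3 hermaphrodites, a log2 fold change of 2.00 ± 0.22 (adjusted p = 1.09e-08). Its L3 male level was its highest and exceeded the L4 male values of 162, 73.6, 92.6 and 103. Y39A1A.9 (chromosome III, 10630070 to 10633501, 464 residues) was 726, 864, 671 and 752 in L3 males and 202, 214, 246 and 244 in L3 hermaphrodites, a log2 fold change of 1.74 ± 0.20 (adjusted p = 1.42e-08). Its highest mean, 838, was that of L1 males. The pseudogene Y17D7C.4 was 2.15 ± 0.30 higher on the log2 scale in L3 males (89.8 against 20.4, adjusted p = 8.54e-07). The other calls at L3 were C30F8.3, E01G4.5, ZK287.1, K09F5.6, Y52B11A.4, Y46G5A.38, Y37E11AL.6 and Y43F8C.3, with log2 fold changes of 1.19 to 2.03.

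**Figure D4:**
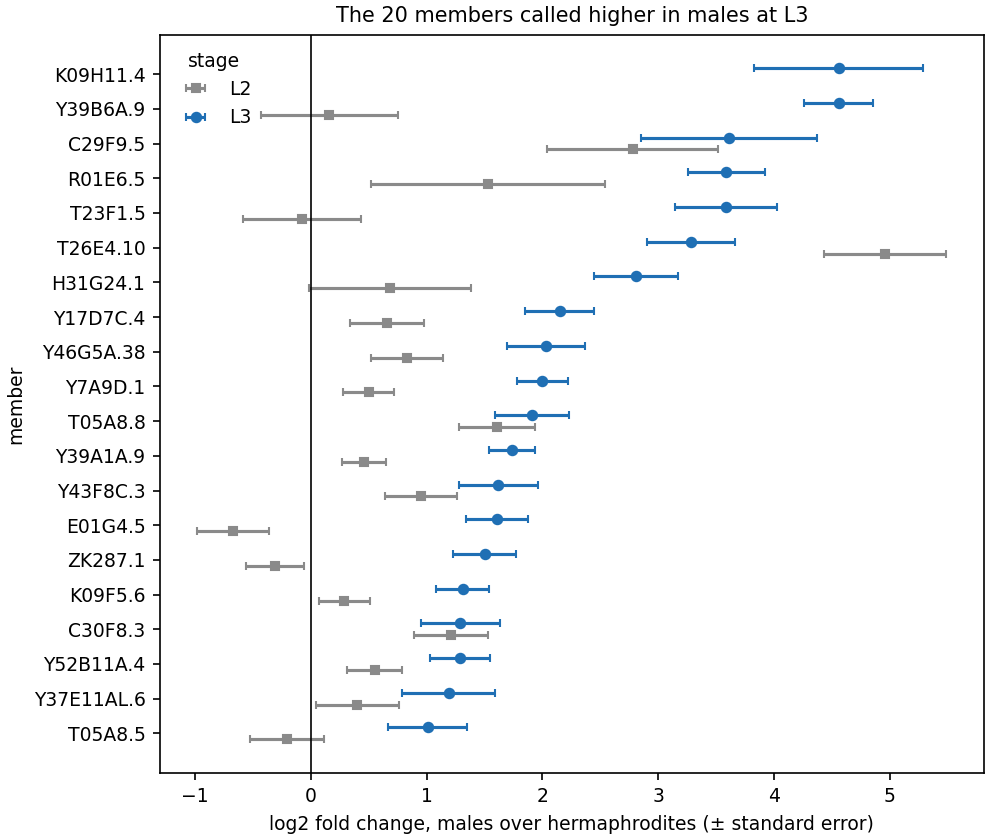
Log2 fold change of males over hermaphrodites, with standard error, at L3 (circles) and L2 (squares) for the 20 members called higher in males at L3; K09H11.4 has no L2 value because no UMI was counted in either sex. The L3 values run from 1.01 for T05A8.5 to 4.56 for Y39B6A.9, and T26E4.10 is the member with the larger value at L2.

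The sex difference grew from L2 to L3 in 6 members by the interaction test (9.38%, beside 0.444% of genes tested) and shrank in none (beside 0.111%). At an unadjusted p under 0.05 it grew in 15 and shrank in 1 by edgeR, and DESeq2 called 7 in the first direction and none in the second. Here too the shares over all genes are not given. The male excess grew on the log2 scale by 4.40 ± 0.72 for Y39B6A.9, 3.67 ± 0.69 for T23F1.5, 2.28 ± 0.41 for E01G4.5, 1.81 ± 0.37 for ZK287.1, 1.49 ± 0.31 for Y7A9D.1 and 1.29 ± 0.27 for Y39A1A.9, with edgeR adjusted p-values of 6.90e-04 to 0.00993. The 6 came about in different ways. Y39B6A.9, T23F1.5, E01G4.5 and Y7A9D.1 rose in males from L2 to L3. Y39A1A.9 rose in males by 0.99 ± 0.19 on the log2 scale (edgeR adjusted p = 1.26e-04), just short of the fold limit for a call. ZK287.1 did not rise in males (means of 72.5 and 72.8) but fell in hermaphrodites, by a log2 fold change of -1.75 ± 0.27 (90.5 to 26.0, adjusted p = 6.27e-06).

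Over the L2 to L3 interval 11 members rose and 1 fell in males (17.2% and 1.56%, beside 11.2% and 1.73% of genes tested), and 4 rose and 9 fell in hermaphrodites (6.25% and 14.1%, beside 7.99% and 2.31%). The male comparison shares its L2 libraries with the L1 to L2 comparison. The 9 that fell in hermaphrodites were all of the kind with a level at L1 or L2, and the other kinds were low at L2 by definition. K09F5.6 fell from a mean of 72.7 to 33.3 in hermaphrodites (log2 fold change -1.07 ± 0.23, adjusted p = 8.79e-04) and was 88.6 and 82.8 in the males of the same stages. K08D12.4 fell in hermaphrodites from 92.2 to 40.6 (-1.13 ± 0.23, adjusted p = 3.99e-04), and male means were 85.4 and 50.05. C30F8.3 fell in both sexes, by -1.18 ± 0.32 in males and -1.27 ± 0.33 in hermaphrodites. T28D6.5 lost its call in hermaphrodites without L3 hermaphrodite 3, at -0.96. The male rises counted for Y67D8C.7 and W03C9.8 rest on 10 against 1 and on 6 against 0 UMIs. Both genes averaged under 5, the limit for a call, over the 28 libraries that the rule did not use.

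Sexes differed at L3 in other measures too. Summed MSP levels were 1914 to 2422 in L3 males and 298 to 483 in L3 hermaphrodites, and summed molting gene levels were 6719 to 7510 and 4536 to 5228. The part of the sperm and molting differences in the L3 calls was not tested.

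The 13 members near 0 before L4 together gave 113 UMIs over the 24 L1, L2 and L3 libraries, between 2 and 52 each, and each gave 89 to 5729 UMIs over the 4 L4 male libraries. In 11 of the 13 no UMI was seen in any L2 male library. All 13 had their highest mean in L4 males, between 31.02 and 1857. They then parted: in YA males they stood at 1.59% to 92.9% of the L4 level, with a median of 61.1%.

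Y67D8C.7 (chromosome IV, 3065514 to 3066934, 2 exons, 157 residues) was by far the most abundant of them. Its values were 2229, 1601, 1769 and 1829 in L4 males and 3.92, 3.62, 8.45 and 8.05 in L4 hermaphrodites. No L3 male library exceeded 5.58. YA males held 435, 400, 370 and 732. In YA hermaphrodites it was 27.7 and 24.2 in libraries 1 and 4 and 6.02 and 7.88 in libraries 2 and 3, against L3 hermaphrodite values of 1.54 to 2.37, a log2 fold change of 3.00 ± 0.52 (adjusted p = 4.39e-06) and of 1.81 without libraries 1 and 4 (adjusted p = 0.0219). Its mean over the 28 libraries that the rule did not use was under 5, the limit for a call.

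T05H10.3, K02B12.6, R09H10.6 and Y17G7B.23 were at or near 0 in L4 hermaphrodites. T05H10.3, now mtre-1, was 161, 46.9, 45.1 and 72.1 in L4 males, 0 in all 4 L4 hermaphrodite libraries and 4.16 or less in YA males, the lowest YA share of the L4 male level among the members at 1.59%. K02B12.6 was 99.98, 32.5, 26.8 and 54.4 in L4 males and at most 1.81 in L4 hermaphrodites, and in YA hermaphrodites it was 12.8 and 10.8 in libraries 1 and 4 and 0 and 1.58 in libraries 2 and 3. R09H10.6 was 65.6, 18.2, 18.3 and 22.1 in L4 males and 0 in all L4 hermaphrodite libraries. Y17G7B.23 was 107, 47.8, 67.02 and 100.06 in L4 males and at most 1.61 in any hermaphrodite library.

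The other 8 members of this kind were F56D6.20, C34D4.3, F36A4.2, D2062.6 (now msrp-6), C05C12.5, W03C9.8, B0207.9 and C08F11.10. They were grouped by their likeness to a list of sperm genes, given below. Their means were 0 in L1 and L2 males and at most 1.23 in L3 males, then 40.5 to 84.6 in L4 males and 23.6 to 72.8 in YA males, 48.0% to 92.9% of the L4 level. L4 hermaphrodites were not silent: their means were 3.04 to 14.7, and in 7 of the 8 all 4 L4 hermaphrodite libraries were above 0. Across the 10 group means of log2(mean + 1), each of the 8 had its highest Pearson r with the 53 sperm genes outside the MSP family. The 8 were chosen by this, and the r was 0.924 to 0.961. Another list, the MSP genes for most of them, came close behind (0.926 beside 0.935 for B0207.9, for example). The sperm list itself went up from L4 to YA males, from 26254 to 33162 in summed level to 70835 to 90040. The means of the 8 members went down, as the rule requires of every member. The likeness is over 10 group means that share their libraries and depth and include the groups used by the rule. It is given as a description.

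C34D4.3 was 157, 22.95, 53.6 and 82.4 in L4 males, 79.5, 75.5, 67.8 and 68.6 in YA males and 6.85, 12.7, 22.3 and 16.9 in L4 hermaphrodites. F56D6.20, with a single exon and 61 residues (chromosome IV, 3912898 to 3913086), was 184, 26.8, 42.6 and 85.3 in L4 males and 56.5, 62.95, 69.8 and 40.5 in YA males. The L4 male libraries were uneven in the same way for most of the 8. Library 1 was the highest in 7 of them and library 2 the lowest in 6, and the summed level of the 8 was 813, 215, 342 and 480 in libraries 1 to 4. Without library 1 the L4 male means were 29.5 to 59.7, and in 3 of the 8 the YA male mean was then the higher: C34D4.3 (52.99 at L4 and 72.8 at YA), F56D6.20 (51.6 and 57.4) and W03C9.8 (38.5 and 45.1). MSP genes summed to 32722 in L4 male library 1 and to 20986 to 24942 in the others, while the other sperm genes summed to 32312, 26254, 30676 and 33162 in libraries 1 to 4. The part of these differences in the members' spread was not tested.

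**Figure D5:**
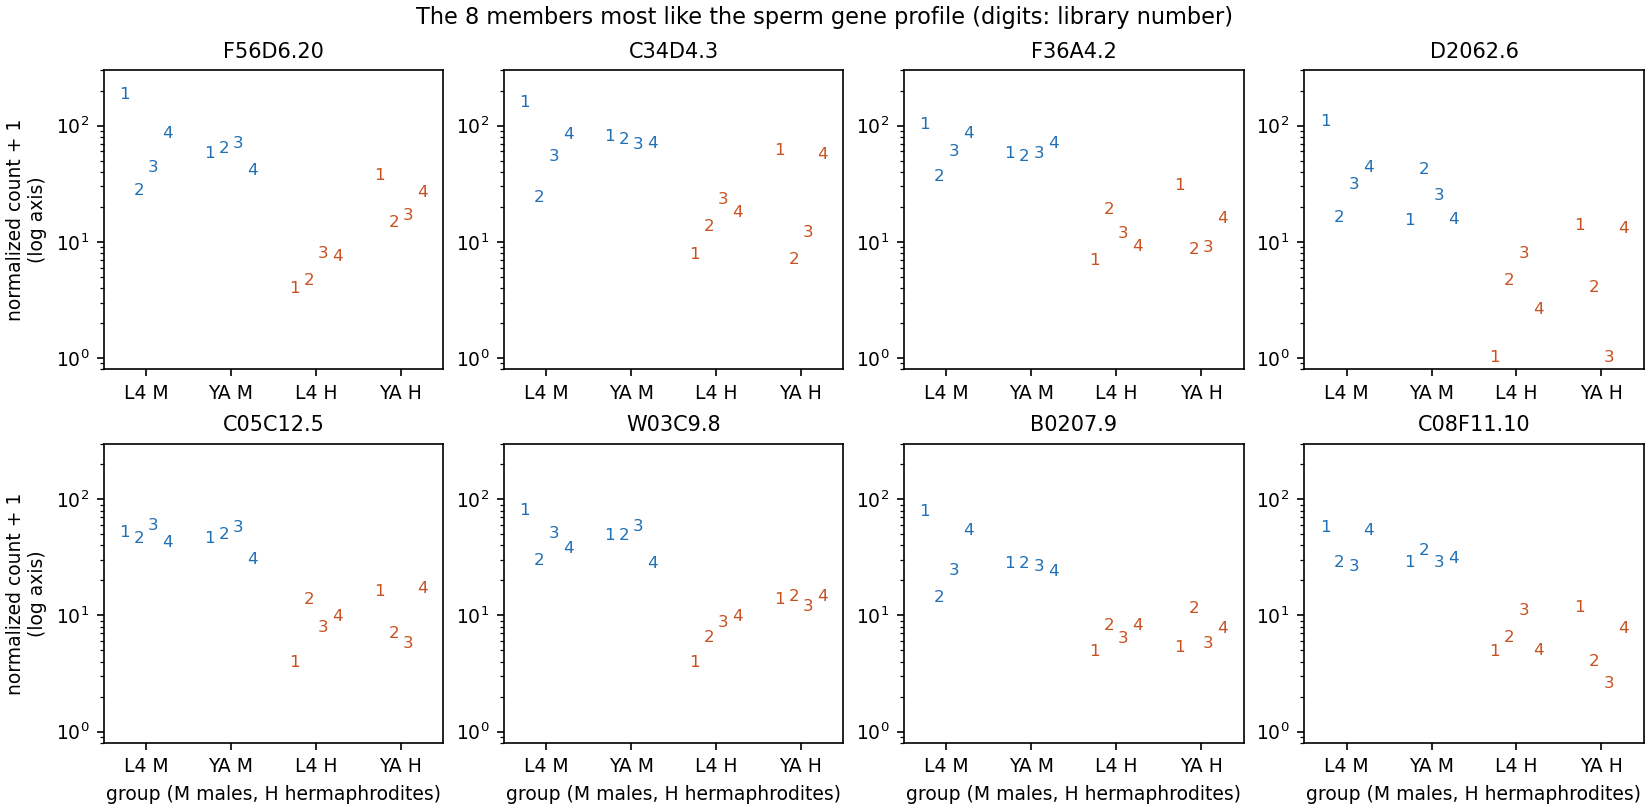
Normalized count plus 1 (log axis) of the 8 members whose course was most like that of sperm genes, in the libraries of L4 and YA males (blue) and hermaphrodites (orange); each digit is a library and gives its number. L4 male library 1 is the highest of its group in 7 of 8 panels, and YA hermaphrodite libraries 1 and 4 lie above libraries 2 and 3 in 6 of 8.

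In YA against L3 hermaphrodites, 13 of the 64 members were higher and 23 lower (20.3% and 35.9%, beside 27.1% and 24% of genes tested). Without YA hermaphrodites 1 and 4 the counts were 10 and 22, with 26 of the 32 calls shared. The shares of all genes in that fit are not given. Of the 13 that were higher, 10 were near 0 before L4, a kind that was defined in part by its low L3 level. C34D4.3 had no UMI in L3 hermaphrodites and was 59.6, 6.02, 11.03 and 55.1 in YA hermaphrodites, at least 47.0-fold higher and, without libraries 1 and 4, at least 12.5-fold. F56D6.20 was at least 32.3-fold and C05C12.5 at least 15.3-fold higher on the same limit, and at least 21.6-fold and 7.95-fold without those libraries. The 8 members just described were all called, and 6 of them were called without YA hermaphrodites 1 and 4, D2062.6 and C08F11.10 being lost at adjusted p-values of 0.329 and 0.05. Of the 13 near 0 before L4, 7 were called without those libraries. The lower limit of 5 on the mean count was taken over all 40 libraries, which include the groups used by the rule. Over the other 28 libraries each of the 13 averaged under 5. Their calls here therefore depend on the levels that chose them, and on the 28 libraries alone they could not be called. Libraries 1 and 4 were both above libraries 2 and 3 in 24 of the 64 members, beside 37.8% of genes tested. All 64 members passed the filter on low counts over all 40 libraries, which include the groups used by the rule. With the filter and fit on the other 28 libraries alone 48 passed, and fewer were called.

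Members with a level at L1 or L2 made up 20 of the 23 that were lower in YA than in L3 hermaphrodites. This split follows in part from the definition of the kinds, which used the larval levels. Y39A1A.9 had the smallest p of all: 202, 214, 246 and 244 at L3 against 2.13, 4.52, 1.58 and 1.34 in YA hermaphrodites, a log2 fold change of -6.57 ± 0.32 (adjusted p = 5.36e-20). Y65B4BL.6 was lower by -2.56 ± 0.31 (adjusted p = 4.37e-09), Y55D5A.1 by -2.52 ± 0.29 (adjusted p = 1.20e-09) and Y7A9D.1 by -1.99 ± 0.26 (adjusted p = 2.27e-08). Y46G5A.38 had 30 UMIs at L3 and none in YA hermaphrodites, at least 5.68-fold lower, or 2.94-fold without libraries 1 and 4. E01G4.5 went the other way, with 49.0, 146, 104 and 65.9 in YA hermaphrodites against 16.2 to 24.8 at L3 (2.19 ± 0.28, adjusted p = 9.03e-09). Without libraries 1 and 4 the log2 fold changes were -6.21 for Y39A1A.9, -2.90 for Y65B4BL.6, -1.98 for Y55D5A.1, -1.85 for Y7A9D.1 and 2.64 for E01G4.5, and all 5 were still called.

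Levels used by the rule are given for the remaining abundant members as a description. Y65B4BL.6 was 4117, 2872, 3342 and 3003 in L4 males and 672, 851, 533 and 554 in L4 hermaphrodites, the highest L4 hermaphrodite mean of any member at 653. F09E10.7 was 798, 705, 814 and 803 in L4 males and 29.0 to 34.6 in L4 hermaphrodites. C30F8.3 was 477, 433, 249 and 439 in L4 males, ZK1010.4 was 333, 251, 250 and 243, and H11E01.3 was 229, 221, 284 and 263. The ratio of the L4 male mean to the L4 hermaphrodite mean plus 1 was largest for Y39B6A.9 at 416, with H31G24.1 at 243, Y67D8C.7 at 265 and R01E6.5 at 151, and its median over the members was 6.07. The YA male mean was under 10% of the L4 male mean in 6 members and over 90% in 6.

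Every L4 male library lay above every L4 hermaphrodite library in 64 of 64 members (beside 28% of genes tested) and above every YA male library in 43 of 64 (beside 17.2%). These counts follow from the rule. Nearest the limit of 30 were W10C4.1 at 30.5 and R09H10.6 at 31.02 inside and Y106G6H.13 and Y41E3.22, both at 25.2, outside. Nearest the limit of 4 times were H11E01.3 at 4.02 and T05A8.5 at 4.12 inside and ZK337.2 and C02F5.14, both at 3.98, outside. Nearest equality with YA males were F47B7.1 (now pmpl-1) at 1.05 times and Y17D7C.4 at 1.07 times inside and Y54G2A.26 at 0.959 times and C54E10.11 at 0.943 times outside. A further 51 unnamed genes met both L4 conditions but were as high or higher in YA males.

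Named genes that met the same 3 conditions were also 64 in number. They included 21 collagens of the col family, 4 grl genes and 3 cutl genes, which make parts of the cuticle, and 42 of them were highest in L4 males, as against 43 of the unnamed. At L3, 29 of 63 tested were higher in males, beside 20 of the 64 unnamed members. By L4 male mean the first 10 were unc-54, a body wall myosin, col-34, col-170, col-113, col-68, col-89, col-33, col-174, col-132 and col-64.

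Lists of known genes were tested between the sexes at L4, where 13.9% of genes tested were higher in males and 14.1% lower. The sperm lists were higher in males for 14 of 31 MSP genes and 26 of 44 other sperm genes tested, with none lower, at a median log2 fold change of 1.21 and 1.17 beside 0.05 for all genes. They were led by msp-142, msp-3 and msp-63 and by ssq-2, ssq-3 and ssq-1. Both tested genes of seminal fluid and the vas deferens were higher, clec-207 (552 against 1.13) and K09C8.2 (147 against 0). In the male tail, ray and spicule list 8 of 15 were higher and none lower, led by mab-3 (335 against 11.81), a transcription factor of male differentiation, ram-5 (270 against 13.4) and dmd-3, and in the list of male-specific ciliated neurons 2 of 5 were, cwp-1 and pkd-2.

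Cuticle collagens were higher for 52 and lower for 5 of 159, cuticlins higher for 8 of 14, hedgehog-related genes higher for 12 of 37, and molting genes higher for 4 and lower for 1 of 14. Their leading genes were col-132, col-64 and col-131 (lower), cut-6, cutl-28 and cutl-21, grl-31, grl-26 and grl-22, and mlt-9, lin-42 and qua-1. Yolk, oocyte and eggshell genes were lower in males for 19 of 20, led by vit-4, vit-5 and vit-2, and germline genes of both sexes for 3 of 11, with gld-1 and pgl-1 first. At L3 the counts of higher genes were 20 of 31 for MSP, 28 of 44 for other sperm genes, 5 of 15 for the tail list and 10 of 159 for collagens, of which 11 were lower.

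The members' courses over the 10 groups were compared with the mean course of each list. Of the 43 with a level at L1 or L2, 20 were most like the tail, ray and spicule list (r of 0.487 to 0.936), 9 the ciliated neuron list and 5 the hedgehog-related list, to which Y65B4BL.6 was closest at r = 0.971. Y39A1A.9 was most like the molting list at 0.957. Y39B6A.9, H31G24.1 and C29F9.5 were most like the seminal fluid list at 0.771 to 0.901, R01E6.5 and K09H11.4 the collagens at 0.868 and 0.852. The list with the highest r is a description of shape over 10 means and does not place a gene in a tissue: Y39B6A.9, named by the study as a marker of spicule muscle, was closest to the seminal fluid list at 0.864.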

How the data were processed

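Whole-worm RNA of 40 samples was profiled with a bulk form of MARS-seq, a 3′ method with UMIs. Per the labels and methods, the authors trimmed reads with cutadapt, used STAR 2.4.2a for alignment to WBcel235, and obtained UMI counts per gene from HTSeq (union mode). No source used here names the annotation release. The deposited table holds raw counts and a normalized signal per sample, the counts divided by DESeq2 size factors by the authors. Batch-corrected and variance-stabilised columns, and columns of the authors' own comparisons (fold changes and p-values), were not used.

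The 64 members and the gene lists were chosen with earlier results of these data known. The rule used the normalized signal of L4 males, L4 hermaphrodites and YA males, so member tests compared the other 7 groups (28 libraries), within a filter and fit over all 40. Raw counts of 8110 genes that passed edgeR's filter (minimum count 10, minimum total 15) were fitted in 1 quasi-likelihood model of 10 group means with TMM scaling (edgeR 4.0.16, limma 3.58.1, R 4.3.3). The filter used all libraries, and all 64 members passed it. Calls needed a p of 0.05 or less after Benjamini-Hochberg adjustment, a log2 fold change of 1 or more in either direction, and a normalized count averaging 5 or more. Adjusted p-values are over all genes tested. The scripts were tested on simulated data. The labels give 4 biological repeats a group, each a pool of worms. Bounds on ratios are 95% counting intervals, and the limit for a count of 0 is 3 UMIs over the 4 libraries of a group.

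Named members were the 12 highest in L4 males, the 6 with the largest ratio to L4 hermaphrodites and to YA males, up to 8 with the smallest p per test, those nearest a limit of the rule and neighbours in the genome; others named were chosen after their values were seen. Companion lists gave up to 3 genes with the smallest p at L4, and named genes meeting the rule up to 10. The labels do not say whether repeat numbers pair samples, and the main fit had no block. Same-numbered L1 males and hermaphrodites deviated together, with correlations of 0.587, 0.136, 0.371 and 0.273. The highest with another number were -0.224, 0.348, 0.192 and 0.24, so number 2 was closer to another. These values leave pairing at L1 unsettled. The L1 calls come from the main fit, and the L1 results with repeat numbers as pairs are given beside them. At the other stages repeat numbers were not taken as pairs. Alternatives were other size factors, no filter, fewer libraries in the fit, a replicate block, DESeq2 1.42.0, no minimum mean count and leaving out each library. The WBcel235 annotation of Ensembl, which held 11659 of the 11933 genes, gave names and positions. No sequences are shown.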

Additional observations from a re-analysis of the deposited data

Results flagged for a closer look

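Among 84 sets of 4 male libraries examined (all 64 members at L4 and the 20 called at L3), 4 had 1 library far from the other 3, and chance gives about 1 in 20. ZK1010.4 was 332.7 in L4 male library 1, against 242.8 to 250.6 in the others, and R09H10.6 was 65.56 there, against 18.17 to 22.07. T05A8.8 was 55.47 in L4 male library 2, against 31.68 to 34.42, and F09E10.7 was 704.9 in the same library, against 798.2 to 813.9.

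The difference between the sexes was not the same at L3 as at L2 in 6 members, by edgeR's test of the interaction with 4 libraries per group. On the log2 scale the male excess was larger at L3 by 4.40 for Y39B6A.9 (L2 means of 2.50 in males and 2.28 in hermaphrodites), by 3.67 for T23F1.5 (4.57 and 4.79), by 2.28 for E01G4.5 (10.9 and 16.97), by 1.81 for ZK287.1 (72.5 and 90.5), by 1.49 for Y7A9D.1 (73.7 and 52.1) and by 1.29 for Y39A1A.9 (394 and 288). In all 6 every L3 male library lay above every L3 hermaphrodite library, beside 16.3% of genes tested. The test that chose the 6 used the same L3 libraries, so this separation is a description.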

How the results depend on the processing

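The number of members was 29 with limits of 45 and 6 times and 115 with 20 and 3 times, all 64 included. It was 60 with TMM scaling, 56 with raw totals, 61 with medians and 43 with no overlap with YA males, and 57 to 74 when each library of the 3 groups was left out. At L1, 8 members were called with DESeq2 size factors, 9 with the DESeq2 Wald test and 3 with only the L1 groups in the fit, which tests fewer genes and fewer samples, and 2 to 8 when single libraries were left out. Leaving out single libraries gave 2 to 4 calls at L2, 18 to 19 at L3 and 6 to 7 for the interaction. Between stages it gave 19 to 21 for males from L1 to L2 and 10 to 14 for males from L2 to L3. In hermaphrodites it gave 9 to 13 from L2 to L3 and 33 to 38 for YA against L3. With only the L3 and YA hermaphrodites in the fit, 16 of 35 members tested were called in place of 36 of 64, 35 being the number that passed its filter on low counts.

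With a replicate block within each stage the interaction was called for 3 members in place of 6, ZK287.1, Y7A9D.1 and Y39A1A.9 being lost at adjusted p-values of 0.0515, 0.0547 and 0.0577. L2 and L3 repeats shared only a number. The block gave 4 calls at L1 and changed no other count by more than 1.5 times. Of 875 values of named members under the alternatives, 845 kept their call, 30 lost it and none changed sign. These results were the called members with the smallest p in each test. A member that did not pass the filter of an alternative fit has no value there and is not counted as lost. F56D6.20, C05C12.5 and K09H11.4 are such members in the fit on the 28 libraries alone. Low counts limit K09H11.4, C29F9.5 and the members near 0 before L4.

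Chosen after seeing the data, the fit on the 28 libraries alone called 4 members at L1, 2 at L2, 16 at L3 and 24 for YA against L3 hermaphrodites, and leaving out YA hermaphrodites 1 and 4 gave 32 calls, 26 of them shared. Shares over all genes are not given for these fits or for the other alternatives, so their counts show only how the calls move.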
